A study of Mus musculus with 6 samples.

Results

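The immediate early genes described here are Fos, Fosb, Fosl2, Jun, Junb, Jund, Egr1, Ier2, Ier3 and Ier5, which were taken by name from a table of 32285 genes. All 10 were found, each under 1 gene identifier. The samples were radial glial progenitors, the stem cells from which the neurons of the cortex descend, taken from the neocortex of wild-type (WT) mouse embryos at E10.5. Dissociated cells were cultured, and about 2 h later GSK2837808A, an inhibitor of lactate dehydrogenase, was added to the GSK wells and an equal volume of its solvent DMSO to the control wells. The labels give the inhibitor as 100 mM, a concentration that was not verified. After about 24 h the cultures were stained, and about 1000 CD133-positive cells that excluded the dead-cell dye DAPI were sorted per sample for Smart-seq2 RNA sequencing (Prom1 encodes CD133). Each treatment had 3 libraries, named GSK 1 to 3 and DMSO 1 to 3, and both came from cells that were dissociated, cultured and sorted.

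Immediate early genes are switched on within minutes of a signal, without new protein synthesis, because the factors that act on their promoters are already in the cell. Growth factors reach them through MAP kinases, serum response factor (SRF) and its ternary complex partners, and cyclic AMP and calcium through CREB. FOS and JUN family proteins pair through leucine zippers to form the transcription factor AP-1, and EGR1 is a zinc finger factor that binds GC-rich sites. The messenger RNAs are short-lived, and the genes are also known to be induced by the dissociation and sorting of tissue.

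The libraries held between 7187089 and 10224348 reads. Radial glial markers were present in every library, with a summed level of 10662 to 13151 normalised reads over 9 genes in GSK libraries and 20078 to 20646 in DMSO libraries, and 8 of the 9 fell (median log2 fold change -1.39). Vim made up most of the sum in GSK libraries and did not pass the test, with 8061 to 10278 normalised reads in GSK libraries and 10011 to 10255 in DMSO libraries. The 8 falls ran from a log2 fold change of -1.01 for Prom1, the gene of the sort marker, to -3.78 for Fabp7. Prom1 averaged 591 normalised reads in GSK libraries and 1183 in DMSO libraries, and Fabp7 219 and 2961. The labels do not say whether replicates came from separate cultures or embryos, so p-values measure the spread between these libraries, which may be technical. In bulk RNA, fewer cells of a type and less RNA per cell cannot be told apart.

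Fos, Junb, Egr1 and Ier2 rose in GSK libraries, Jun fell, and Fosl2, Jund, Ier3 and Ier5 did not pass the test. Fosb lay below the limit for testing, a mean of 10 normalised reads over the 6 libraries. The test was limma on log2(value + 1) across 15073 genes, with Benjamini-Hochberg adjustment at 0.05. Among all tested genes 17.0% rose and 19.1% fell, 36.1% in all, so a call is common in this comparison. The 3 GSK values lay wholly above the 3 DMSO values for the 4 genes that rose, and wholly below for Jun. Over all tested genes this held for 22.8% above and 24.4% below, 47.2% in all. The median log2 fold change of the 9 tested members was 0.27, against 0.0088 over all genes tested. Summed over the 10 genes, the level was 1507, 1616 and 1517 normalised reads in GSK libraries and 1407, 1520 and 1539 in DMSO libraries. The rises and the fall thus left a summed level whose groups overlapped.

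**Figure D1:**
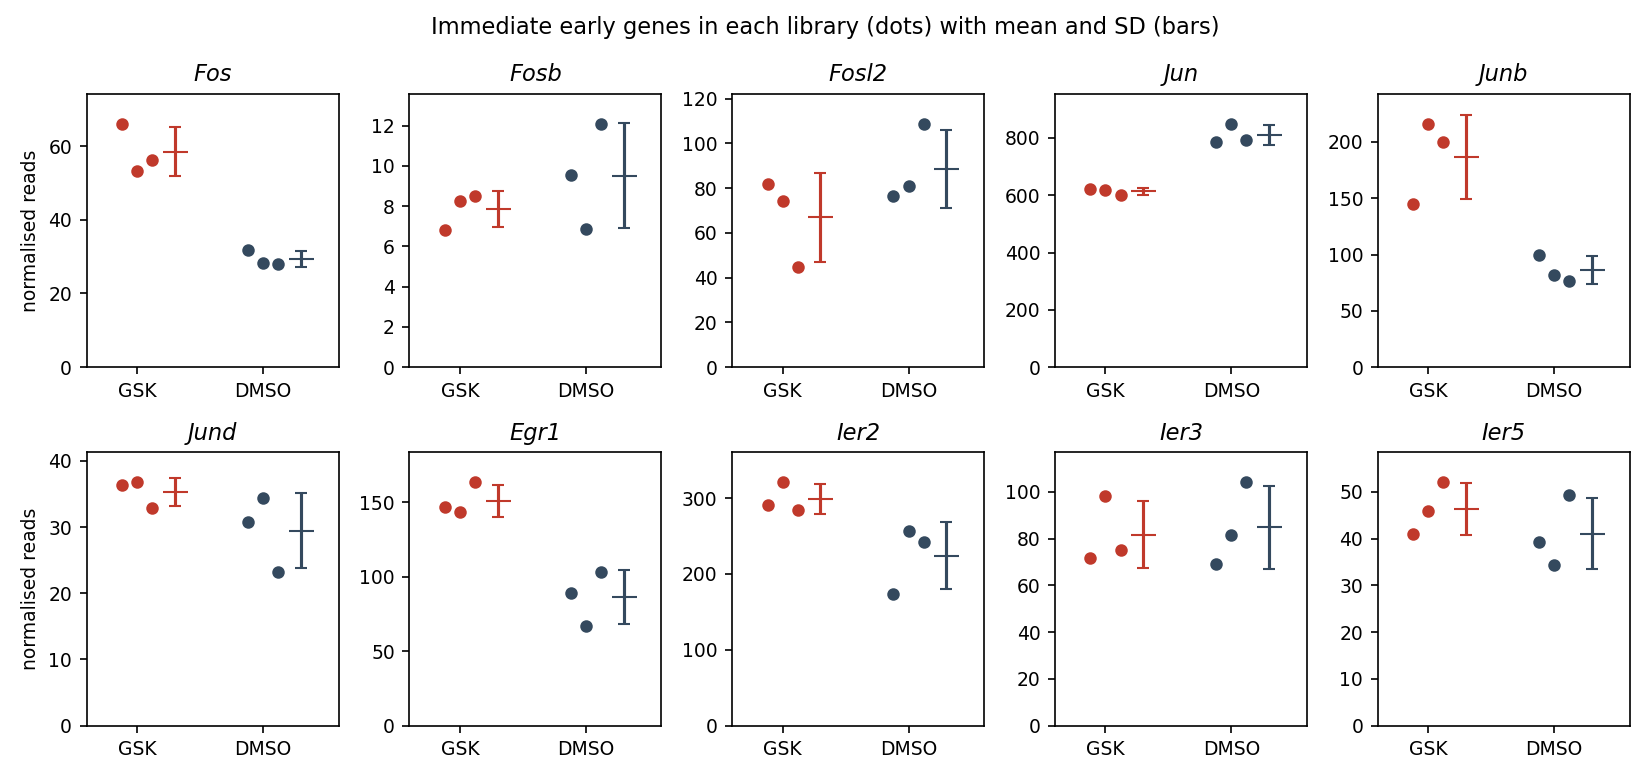
Normalised reads (vertical axes, from 0, a scale per panel) of each immediate early gene in the 3 GSK libraries (red dots, left) and the 3 DMSO libraries (dark dots, right), with mean and SD beside them. Fos, Junb, Egr1 and Ier2 are higher in every GSK library than in any DMSO library, Jun is lower, and the groups overlap for the other 5 genes.

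Fos encodes the founding member of the FOS family, which cannot pair with itself and binds DNA only with a partner such as a JUN protein. Fos (ENSMUSG00000021250, chromosome 12, 85473890 to 85477273, GRCm38) had 66.0, 53.3 and 56.2 normalised reads in GSK libraries, against 31.9, 28.4 and 27.9 in DMSO libraries. The lowest GSK library was well above the highest DMSO library. The log2 fold change was 0.97 (standard error 0.24, limma adjusted p = 0.00399), and the fold of the means was 1.99. These values rest on 53 to 58 reads per GSK library and 30 to 33 per DMSO library.

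Fosb and Fosl2, whose products also pair with JUN proteins, gave no call. Fosb (chromosome 7, 19302696 to 19310051) had 6.83, 8.27 and 8.49 normalised reads in GSK libraries, against 9.56, 6.87 and 12.1 in DMSO libraries, which is 6 to 13 reads per library. The groups overlapped, and with the limit lowered to a mean of 5, an alternative added after the values were seen, the log2 fold change was -0.22 (limma adjusted p = 0.758). Fosl2, which encodes FRA-2 (chromosome 5, 32135801 to 32157842), had 81.9, 74.4 and 44.6 normalised reads in GSK libraries, against 76.5, 80.8 and 109 in DMSO libraries. GSK 3 was the lowest of all 6 and DMSO 3 the highest, while the other 4 lay close together. The log2 fold change of Fosl2 was -0.43, with a 95% interval of -0.92 to 0.06 (limma adjusted p = 0.165).

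Jun encodes c-JUN, which can pair with itself or with a FOS protein. It was the most abundant of the 10 genes in reads, and the level of Jun (ENSMUSG00000052684, chromosome 4, 95049034 to 95052222) was 620.2, 619 and 601 normalised reads in GSK libraries, against 787, 849 and 792 in DMSO libraries. The 3 GSK values lay close together and below every DMSO value. The log2 fold change was -0.40 (standard error 0.12, limma adjusted p = 0.0143). The call for Jun was lost without GSK replicate 2 (adjusted p = 0.0607) or without DMSO replicate 2 (adjusted p = 0.0816), with log2 fold changes of -0.41 and -0.36. The antisense transcript Junos shares 232 exon bases with Jun, and Junos had 127, 141 and 134 normalised reads in GSK libraries, against 178, 171 and 217 in DMSO libraries. Junos was lower as well (log2 fold change -0.49, limma adjusted p = 0.0229). The protocol does not mark strand, so reads of that stretch cannot be told apart.

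Junb encodes JUNB, a JUN protein known to be a weaker activator than c-JUN at many sites and able to oppose it. Junb (ENSMUSG00000052837, chromosome 8, 84974484 to 84978718) had 145, 216 and 199 normalised reads in GSK libraries, against 99.9, 81.6 and 76.2 in DMSO libraries. GSK 1 was the lowest of its group and still above DMSO 1, the highest of the other. Among the 9 tested members Junb had the highest log2 fold change, 1.10 (standard error 0.19, limma adjusted p = 0.000116), and the fold of the means was 2.17.

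An annotated noncoding transcript of Junb shares 173 exon bases with the last exon of Prdx2 on the opposite strand. Prdx2 encodes a peroxide-reducing enzyme that is abundant in red blood cells, and it had 7547, 10175 and 10819 normalised reads in GSK libraries, against 7126, 7312 and 6424 in DMSO libraries. Prdx2 rose too (log2 fold change 0.44, limma adjusted p = 0.0359). At an even coverage of its 1612-base coding transcript, Prdx2 alone would place 810 to 1161 normalised reads on those bases in GSK libraries and 689 to 785 in DMSO libraries, more than the whole value of Junb in every library. How reads of the shared bases were assigned is not given in the sources used here, and their part in the rise of Junb was not tested.

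**Figure D2:**
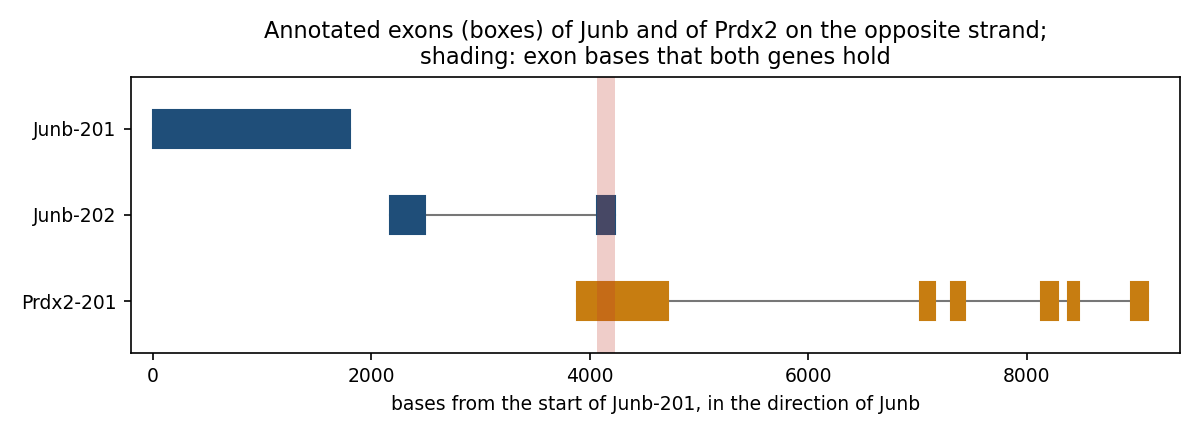
Annotated exons (boxes, GENCODE vM21) of the coding transcript of Junb, its noncoding transcript and the coding transcript of Prdx2 on the opposite strand, by distance in bases from the start of the coding transcript of Junb. The shaded band marks the 173 bases that the noncoding transcript of Junb shares with Prdx2, which lie apart from the coding transcript of Junb.

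Jund encodes JUND, a family member known for steady rather than inducible expression. Jund (chromosome 8, 70698949 to 70700616) had 36.4, 36.8 and 32.9 normalised reads in GSK libraries, against 30.8, 34.4 and 23.2 in DMSO libraries. The groups overlapped, and the log2 fold change was 0.27 with a 95% interval of -0.30 to 0.84 (limma adjusted p = 0.471). Of the 1668 exon bases of Jund, 877 are shared with Gm11175 on the opposite strand, so the level of Jund is uncertain. Gm11175 itself had 12.5 to 13.8 normalised reads in GSK libraries and 7.73 to 23.2 in DMSO libraries.

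The 100 bases before the RefSeq start (GRCm38.p6) are shown for Fos and Junb, which rose, and for Jun, which fell, because these are the 3 FOS and JUN family genes that passed the test. They lie at chr12:85473790-85473889 on the plus strand (Fos), at chr8:84978749-84978848 on the minus strand (Junb) and at chr4:95052223-95052322 on the minus strand (Jun). Capitals mark matches to the searched motifs, which are a CRE core and a TATA box in Fos and an AP-1 site in Jun.
Fos: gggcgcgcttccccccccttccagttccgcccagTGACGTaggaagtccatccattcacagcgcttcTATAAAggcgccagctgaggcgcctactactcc
Junb: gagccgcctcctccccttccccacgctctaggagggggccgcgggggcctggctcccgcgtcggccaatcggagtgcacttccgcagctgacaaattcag
Jun: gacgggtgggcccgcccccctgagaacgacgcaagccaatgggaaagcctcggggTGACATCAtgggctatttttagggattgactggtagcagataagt

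Both strands of the 250 bases before the start were searched for TGANTCA (AP-1), TGACATCA (the AP-1 site known from the human JUN promoter), TGACGT (CRE core), the CArG box of SRF, GCGNGGGCG (EGR) and TATAAA, the core promoter element bound by TBP. RefSeq windows were at hand for 8 of the 10 genes, without Egr1 and Ier2. TGACGT lay 66 to 61 bases before the start of Fos and in 6.47% of 32851 windows of all genes. TATAAA lay 33 to 28 bases before the start of Fos and in 12.4% of windows. TGACATCA lay 45 to 38 bases before the start of Jun and in 2.93% of windows. GCGNGGGCG was found before the RefSeq starts of Fosb and Fosl2 and in 4.70% of windows, and neither of these genes passed the test. TGANTCA and the CArG box had no match in the 8 windows, against 6.75% and 1.47% of windows of all genes. Bases farther than 250 from the start were not searched, so these genes may hold such sites there. For Jund the window ended at 70697738, ahead of the GENCODE start of the gene at 70698949. For Fosl2 the last 100 bases of the window lay at 32136372 to 32136471, past the GENCODE start at 32135801. The match of Fosl2 thus lies within the gene as GENCODE gives it. A match is a stretch of letters and not a measured site.

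Per kilobase of the longest coding transcript, the makeup of the FOS and JUN family transcripts differed between the treatments while their sum did not separate them. The sum over the 6 genes was 342, 374 and 354 normalised reads per kilobase in GSK libraries, against 349.8, 359.5 and 337 in DMSO libraries. Jun held 56.9%, 51.9% and 53.2% of that sum in GSK libraries, against 70.6%, 74.0% and 73.6% in DMSO libraries. Junb held 23.4%, 31.9% and 31.1% in GSK libraries, against 15.8%, 12.5% and 12.5% in DMSO libraries. For both genes the groups did not overlap, and Jun remained the largest share in every library. Fos held 6.75% to 9.16% in GSK libraries, against 3.74% to 4.32% in DMSO libraries. The ratio of Jun to Junb per kilobase was 2.43, 1.63 and 1.71 in GSK libraries, against 4.47, 5.90 and 5.89 in DMSO libraries. Fos stood at 2.22 to 3.91 times the level of Fosl2 per kilobase in GSK libraries, against 0.795 to 1.29 times in DMSO libraries. These shares are descriptions with no test, and they take in the overlaps of Jun with Junos, of Junb with Prdx2 and of Jund with Gm11175.

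**Figure D3:**
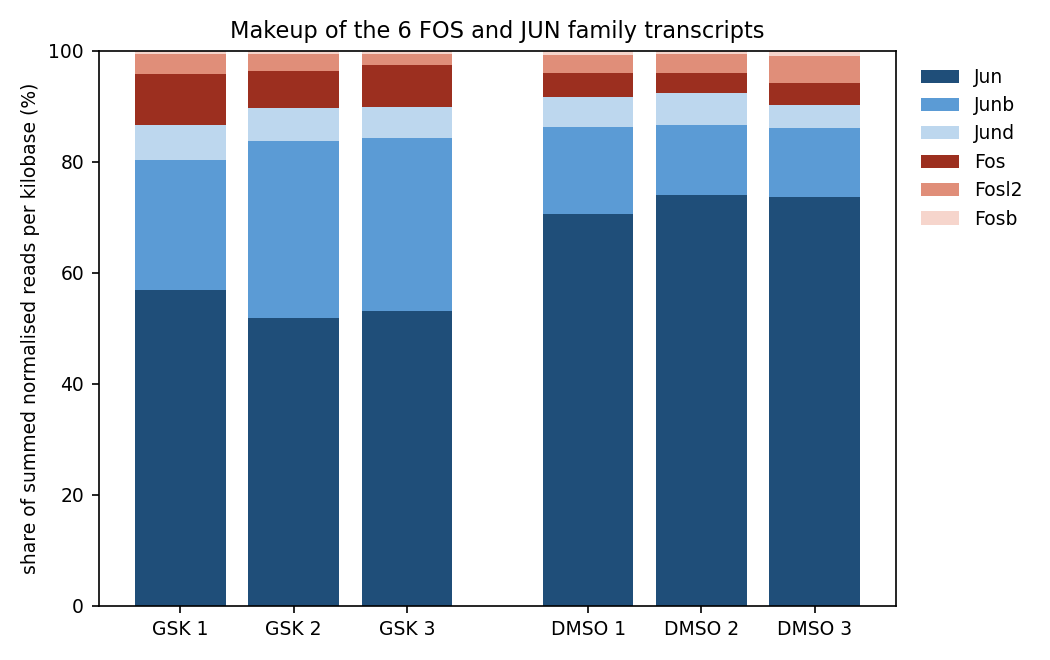
Share (%) of the summed normalised reads per kilobase of the 6 FOS and JUN family genes held by each gene, for the 3 GSK libraries (left) and the 3 DMSO libraries (right). Jun takes 51.9% to 56.9% in GSK libraries and 70.6% to 74.0% in DMSO libraries, with a larger Junb and Fos share in GSK libraries.

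Egr1, the zinc finger factor gene, followed Fos and Junb. Egr1 (ENSMUSG00000038418) had 147, 143 and 163 normalised reads in GSK libraries, against 89.2, 67.0 and 103 in DMSO libraries. All 3 GSK libraries were higher than any DMSO library, and the DMSO libraries were the more spread of the groups. The log2 fold change was 0.82 (standard error 0.19, limma adjusted p = 0.00183). The other members of the EGR family were scarce. Egr2, singled out after its values were seen, had 16.8 ± 7.63 normalised reads in GSK libraries and 4.60 ± 2.86 in DMSO libraries (SD, n = 3 each), and rose with a log2 fold change of 1.70 (limma adjusted p = 0.0218). Egr2 lost its call without GSK replicate 2 (adjusted p = 0.103), GSK replicate 3 (0.0952) or DMSO replicate 2 (0.0966). Egr3 and Egr4 averaged below 3 normalised reads in both treatments and were not tested.

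The IER genes are named for their early induction. Ier2, a small nuclear regulator with a single exon (chromosome 8, 84661331 to 84662852), had 291, 321 and 284 normalised reads in GSK libraries, against 174, 256 and 243 in DMSO libraries. The groups did not overlap, but DMSO 1 stood apart from the other DMSO libraries. The log2 fold change of Ier2 was 0.43 (standard error 0.16, limma adjusted p = 0.0405). Without DMSO replicate 1 it was 0.26 (adjusted p = 0.246) and without GSK replicate 2 it was 0.38 (adjusted p = 0.154). Ier2 also missed the threshold in edgeR (adjusted p = 0.0526) and in DESeq2 (0.0575) on the recovered reads. By either tool 3 of the immediate early genes rose and 1 fell. Of all genes 16.8% rose and 19.9% fell in edgeR (36.7% in all), and 15.9% rose and 18.1% fell in DESeq2 (34.0% in all).

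Ier3, which encodes a stress-inducible regulator of cell survival (chromosome 17, 35821684 to 35822923), had 71.7, 98.3 and 75.3 normalised reads in GSK libraries, against 69.0, 81.6 and 104 in DMSO libraries. The ranges of Ier3 overlapped almost wholly, and the log2 fold change was -0.05 with a 95% interval of -0.48 to 0.39 (limma adjusted p = 0.884). Ier5, known as a partner of the heat shock factor HSF1 (chromosome 1, 155096361 to 155099636), had 41.0, 45.9 and 52.0 normalised reads in GSK libraries, against 39.3, 34.4 and 49.3 in DMSO libraries. Its log2 fold change was 0.18 with a 95% interval of -0.34 to 0.70 (limma adjusted p = 0.603). The groups overlapped for Ier5 too. The interval of Ier3 includes a fall of the size measured for Jun, and that of Ier5 a rise of the size measured for Ier2.

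**Figure D4:**
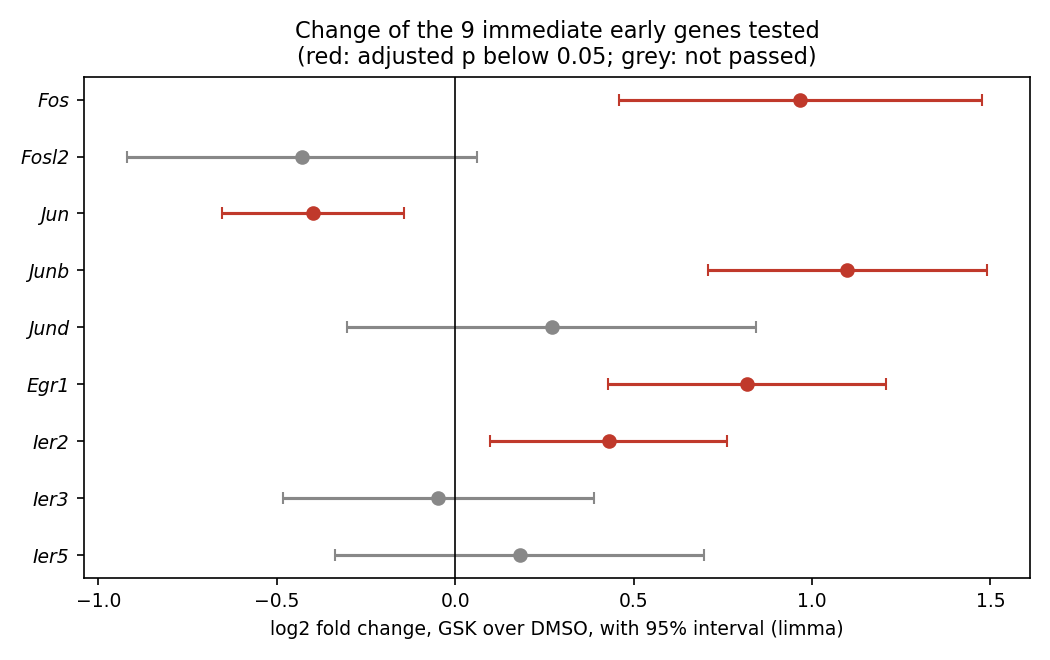
Log2 fold change of GSK over DMSO (horizontal axis) with its 95% interval for the 9 immediate early genes tested, red where the adjusted p was below 0.05 and grey where not. Junb (1.10), Fos (0.97), Egr1 (0.82) and Ier2 (0.43) lie right of 0 and Jun (-0.40) left of it, while the intervals of Fosl2, Jund, Ier3 and Ier5 include 0.

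Per kilobase of coding transcript, the order of levels shifted at the top and in the middle. In GSK libraries Ier2 (187 to 211 normalised reads per kilobase) and Jun (188 to 194) came first with ranges that overlapped, followed by Junb (79.9 to 119) and Ier3 (63.4 to 86.9), which overlapped too. Egr1 (32.0 to 36.4), Fos (25.3 to 31.3) and Jund (mean 21.2) followed without overlap, then Ier5 (12.5 to 15.9) and Fosl2 (6.82 to 12.5), whose ranges touched, and Fosb (1.81 to 2.24). In DMSO libraries Jun stood alone at the top (247 to 266), above Ier2 (114 to 168), Ier3 (61.0 to 92.0) and Junb (42.1 to 55.2), none of which overlapped its neighbour. Egr1 (14.9 to 23.0), Jund (13.9 to 20.6), Fos (13.2 to 15.1), Fosl2 (11.7 to 16.6) and Ier5 (up to 15.0) each overlapped the next, and Fosb (1.82 to 3.19) was again the lowest. Junb thus ranked above Ier3 in GSK libraries by its mean and below Ier3 in DMSO libraries.

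Over the 6 libraries the log2 values of Fos correlated with those of Egr1 and Junb at Pearson r of 0.886 and 0.879. After the group means were taken out, these were 0.0085 and -0.41, so the correlation lay in the difference between treatments. Among 9209 protein coding genes averaging 100 or more normalised reads, the patterns most like Fos were those of Zfp950 (r = 0.997), Mxd1 (0.996), Rmnd5a (0.994), Acsl4 (0.992) and Usp11 (0.992). Mxd1 encodes a MAX partner that opposes MYC, and Acsl4 an enzyme that activates long-chain fatty acids. These r describe 6 libraries in 2 treatments and carry no test.

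Of 40 other immediate early genes, 29 passed the limit for testing, and 11 rose and 2 fell (median log2 fold change 0.29). The shares over all genes tested were 17.0% and 19.1%, and the list was not tested against them. Atf3, which encodes a stress-induced AP-1 partner and is also a target of ATF4, had 95.6, 84.5 and 122 normalised reads in GSK libraries, against 6.37, 10.3 and 9.29 in DMSO libraries. Every GSK library was far above every DMSO library, and the log2 fold change of Atf3 was 3.40 (limma adjusted p = 2.27e-08). Sgk1, which encodes a growth factor regulated kinase, averaged 691 ± 28.4 normalised reads in GSK libraries and 226 ± 43.0 in DMSO libraries (SD, n = 3 each). Btg2, an antiproliferative gene, and Gadd45g, a growth arrest gene, rose with log2 fold changes of 1.22 and 0.88. Socs3, an inhibitor of cytokine signalling, fell by 0.66 on the log2 scale, and Trib1, a pseudokinase gene, by 0.63. Trib1 lost its call without DMSO replicate 2 (adjusted p = 0.104) or DMSO replicate 3 (0.0705). The number that rose was 6 without GSK replicate 2 and 7 without GSK replicate 3, DMSO replicate 1 or DMSO replicate 2.

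Other bZIP genes whose products can join AP-1 dimers rose in 6 of 10 tested cases and fell in 1 (median log2 fold change 0.43). Of all genes tested 17.0% rose and 19.1% fell, and no test set the list against these shares. Atf3 is in this list too. Atf4, the transcription factor gene of the integrated stress response, had 2115, 2592 and 2713 normalised reads in GSK libraries, against 1017, 998 and 804 in DMSO libraries, a log2 fold change of 1.40. Maf, which encodes a bZIP factor used in lens and immune cells among others, rose with a log2 fold change of 0.91. Batf3, which encodes a JUN partner, averaged 10.6 ± 1.42 normalised reads in GSK libraries and 28.9 ± 6.38 in DMSO libraries (SD, n = 3 each), and fell by 1.36 on the log2 scale.

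Among the upstream regulators few transcripts were called, in a table where 36.1% of all genes tested were called, and the lists were not tested against that share. Of 15 SRF, ternary complex and CREB genes 0 rose and 2 fell (limma), with 1 higher and 2 lower at an unadjusted p below 0.05, and 0 higher and 2 lower in both edgeR and DESeq2. The genes that fell were Atf1, a CREB relative, by 0.53, and Elk4, a ternary complex factor gene, by 0.43 on the log2 scale. Both lost their call without GSK replicate 2 (adjusted p = 0.0593 for Atf1 and 0.0576 for Elk4) or DMSO replicate 2 (0.0735 and 0.101). Elk4 also lost it without GSK replicate 3 (0.139), DMSO replicate 1 (0.0831) or DMSO replicate 3 (0.0564). Srf, singled out after its values were seen, had 93.3, 101 and 70.0 normalised reads in GSK libraries, against 74.4, 76.5 and 74.3 in DMSO libraries (log2 fold change 0.21, limma adjusted p = 0.433). With array weights, whose estimator did not converge, 6 genes of this list rose, Srf among them (log2 fold change 0.40, limma adjusted p = 0.0174). That setting also raised the number of calls over all genes. Without GSK replicate 1 the number of this list that rose was 1. Of 28 tested genes of the MAP kinase cascade 3 rose and 3 fell, and 8 rose and 6 fell with array weights. Mapk8, which encodes the JUN kinase JNK1, and Map2k3, an activator of p38 kinases, rose with log2 fold changes of 0.50 and 0.55. The p38 kinase genes Mapk11 and Mapk12 fell by 1.12 and 1.08 on the log2 scale.

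Genes that limit the early response moved in both directions, with 5 of 20 tested higher and 8 lower (median log2 fold change -0.16). Over all genes tested 17.0% were higher and 19.1% lower, and the list was not tested against these shares. Dusp1, an early gene whose phosphatase inactivates MAP kinases, averaged 443 ± 79.5 normalised reads in GSK libraries and 285 ± 50.1 in DMSO libraries (SD, n = 3 each), a log2 fold change of 0.63. The ERK inhibitor genes Spry4, Spry1 and Spred2 fell by 2.72, 1.22 and 0.71 on the log2 scale. Spry2, of the same family, rose by 0.54 (limma adjusted p = 0.0340), a call lost without GSK replicate 2 (adjusted p = 0.107), GSK replicate 3 (0.163) or DMSO replicate 2 (0.176). Zfp36l1, which encodes a protein that destabilises AU-rich messenger RNAs, fell by 0.89. Its relative Zfp36, singled out after its values were seen, rose by 0.65 (limma adjusted p = 0.0479, edgeR 0.0513, DESeq2 0.0775). The number that rose was 3 in edgeR and in DESeq2, and 2 without GSK replicate 2, GSK replicate 3 or DMSO replicate 2 and 3 without DMSO replicate 1. Of 11 tested heat shock genes known from tissue dissociation 2 rose and 2 fell in limma, beside 17.0% and 19.1% of all genes tested. In edgeR and in DESeq2 3 rose and 2 fell. The shares over all genes were 16.8% and 19.9% in edgeR, and 15.9% and 18.1% in DESeq2. Dnajb4 rose by 0.97 on the log2 scale and Hspa1b by 1.63, and Hspe1 and Hsph1 fell by 0.68 and 0.56. Hspa1b lost its call without GSK replicate 2 (adjusted p = 0.0518). Hspa1a, singled out after its values were seen, lay below the limit for testing. It had 11.4, 9.19 and 17.0 normalised reads in GSK libraries, against 1.06, 1.72 and 1.86 in DMSO libraries. With array weights, which did not converge, 5 heat shock genes rose, and without GSK replicate 1 the number was 4, whereas without GSK replicate 2 it was 1. It was 4 with totals that leave out globin and rRNA-overlapping genes, and 1 at a mean of at least 100.

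**Figure D5:**
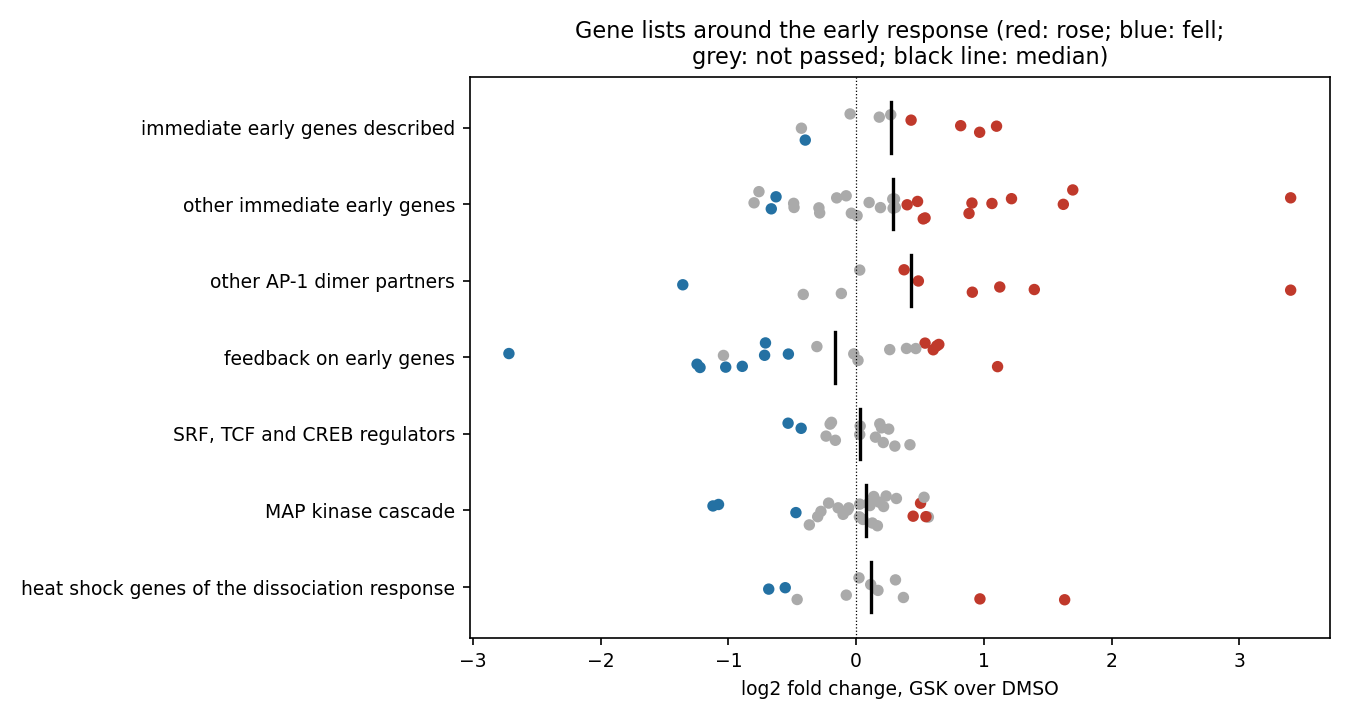
Log2 fold change of GSK over DMSO (horizontal axis) for each tested gene of 7 lists, with red dots for genes that rose, blue for genes that fell and grey for genes that did not pass, and a black line at each median. The described immediate early genes have a median of 0.27 and the other immediate early genes 0.29, while the medians of the SRF, MAP kinase and heat shock lists lie between 0.03 and 0.11.

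Markers of other cell types moved with the treatment, in a comparison where 17.0% of all genes tested rose and 19.1% fell in limma. The shares were 16.8% and 19.9% in edgeR, and 15.9% and 18.1% in DESeq2. Of 12 myeloid markers 8 rose in limma and in edgeR and 9 in DESeq2. Their summed level was 718, 1349 and 1660 normalised reads in GSK libraries, against 167, 103 and 412 in DMSO libraries. Of 8 tested erythroid markers 7 rose in limma and 8 in edgeR and in DESeq2. Over all 9 erythroid markers the sum was 183780, 273997 and 271803 normalised reads in GSK libraries, against 14685, 20598 and 2391 in DMSO libraries. Neuron markers summed to 20277 to 24749 in GSK libraries and 6742 to 13594 in DMSO libraries. Of these 7 markers 4 rose in limma and in edgeR and 6 in DESeq2. Mesenchymal markers summed to 17071 to 26625 in GSK libraries and 27265 to 34358 in DMSO libraries, and 2 of 8 fell in limma and in edgeR and 0 in DESeq2. Of 2 tested endothelial markers neither passed in limma, with 1 lower at an unadjusted p below 0.05, 1 lower in edgeR and 0 in DESeq2, and their summed level over 6 genes was 38.2 to 63.7 in GSK libraries and 48.9 to 63.2 in DMSO libraries. Of 6 intermediate progenitor markers 5 rose, among them Btg2, which is also counted above with the other immediate early genes. No marker on these lists was at 0 in all 6 libraries. Within the treatments, Ier5 and Fosb followed the order of the myeloid sum in both groups, and other members did not. Fosb did so on 6 to 13 reads per library. Other cell types shared parts of this order. The neuron sum had it in GSK libraries (20277, 23014 and 24749) and its reverse in DMSO libraries (11277, 13594 and 6742). The mesenchymal sum had its reverse in GSK libraries (26625, 17945 and 17071) and the order itself in DMSO libraries (27418, 27265 and 34358). DMSO 3 had the highest myeloid sum of its group, the highest Egr1, Ier3, Ier5, Fosb and Fosl2 and the lowest Junb, Jund and, by a small margin, Fos. GSK 3 had the highest myeloid sum of its group, the highest Egr1, Ier5 and Fosb and the lowest Jun, Jund, Fosl2 and Ier2. GSK 1 had the lowest myeloid sum, the highest Fos, Jun and Fosl2 and the lowest Junb, Ier3, Ier5 and Fosb. The part of these cells in the changes of the immediate early genes was not tested.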

How the data were processed

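Gene expression was measured by Smart-seq2 RNA sequencing in 6 libraries, 3 GSK and 3 DMSO, grouped by their titles. The deposited signal values are normalised read counts, made by the authors. Per the submitters' processing notes, tools and builds included STAR, DESeq, GRCm38 and mm10, without roles or versions. The counter, its annotation and its strand setting were not stated in any source used here, and Smart-seq2 does not mark strand. The table repeats each gene on its transcript rows (118098 rows), and 1 row per gene was kept. In every library 100% of nonzero values were whole multiples of 1 step within 0.01, so whole reads were recovered for edgeR 4.0.16 and DESeq2 1.42.0 (5536 and 5129 genes called).

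limma 3.58.1 in R 4.3.3 (trend and robust priors) was fitted on log2(value + 1) of 15073 genes with a mean of at least 10, which understates the change of low genes. Calls are Benjamini-Hochberg adjusted p below 0.05 over all genes tested. The test was also run on simulated data in which far fewer genes changed than were called here. That run therefore does not show how the test behaves in this comparison. Positions and lengths came from GENCODE vM21, matched by identifier for 32235 genes, but only 11 identifier versions were equal, so exons may differ from those counted. Promoters came from RefSeq. All members were named, and from each other list up to 4 called genes per direction by smallest p, not all of which are printed. Members and lists were chosen with earlier results of these data known. Alternatives were other pseudocounts, filters, scalings, tools, thresholds, array weights, a replicate block and each library left out.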

Additional observations from a re-analysis of the deposited data

How the results depend on the processing

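Fos, Junb and Egr1 kept their direction and their call under every alternative in which they were tested (Fos fell outside the limit of a mean of 100), with log2 fold changes of 0.80 to 1.03, 0.98 to 1.30 and 0.65 to 0.96. Ier2 lost its call in 7 of 19 alternatives and Jun in 3 of 19, and both kept their direction. The number of immediate early genes called higher was 4, or 3 in some alternatives, and the number called lower was 1, from 0 to 1 with a library left out and 0 at an adjusted p below 0.01 (limma). Ier3, never called, changed sign with array weights (0.24) and without GSK replicate 1 (0.04), GSK replicate 3 (0.0041) or DMSO replicate 3 (0.11), with a range of -0.19 to 0.11 over the libraries left out. Among all genes 2563 rose and 2883 fell, against 2052 and 3264 with equal library totals, and 2874 and 2602, a balance turned round, with totals that leave out globin and rRNA-overlapping genes. With array weights, whose estimator did not converge, 4651 rose and 4311 fell, and at an adjusted p below 0.01 1562 rose and 2019 fell. The cause of these shifts was not tested, apart from the stricter threshold itself. TMM scaling, the limit of a mean of 5 and the repeat of these settings for the other gene lists were added after the data were examined. Same-numbered libraries did not deviate together (correlations of 0.0131, -0.0236 and 0.0529). With 3 libraries per group this cannot show that they were unpaired, and the labels do not give their origin. With a replicate block 2662 genes rose and 2980 fell, and 4 and 1 of the immediate early genes. Fosb rests on 6 to 13 reads per library and Jund on 25 to 40.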
